A study of Homo sapiens with 4 samples.

Results

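The genes that encode the subunits of the proteasome were followed in MDA-MB-468 cells, a basal-like breast cancer line with the R273H mutant of p53, after knockdown of that endogenous mutant. Members were all genes whose symbol consists of PSM, a letter from A to G and digits, without pseudogenes or antisense transcripts. In all, 45 of 18417 measured genes met this rule, and each is given by its brightest transcript cluster (highest mean log2 signal over the 4 arrays). RefSeq lists 48 protein-coding genes with such a symbol, and PSMC5, PSMD7 and PSMD13, which no cluster names alone, are not analysed here. The rule used names only, but it was chosen with earlier results of these data known. PSMC1 and PSMC6 have more than 1 cluster with different values and the same listed accessions, and which gene copy each cluster reads is uncertain.

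RNA had been profiled on Affymetrix Human Gene 1.0 ST arrays. The cells of 2 arrays had been transduced with a non-targeting lentiviral shRNA (NS), and those of the other 2 with the p53-directed lentiviral shRNA p53si-1. Both groups were the same line, grown in RPMI medium with fetal bovine serum, and the comparison rests on 1 shRNA sequence in 1 cell line. The replicates are described as independent experiments, but the labels do not name separate cultures, and the p-values measure the spread between these arrays only.

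All 8 epithelial marker genes on the list, among them EPCAM, CDH1 and the keratins KRT5, KRT8 and KRT18, had log2 signals between 9.38 and 12.6 on every array. The hormone receptor genes ESR1 and PGR, which a basal-like line should lack, lay between 3.89 and 4.62. Of 7 leukocyte markers 5 were measured, with PTPRC between 3.01 and 3.14 and CD14 between 9.69 and 9.92. Their summed log2 signal was 23.0 to 23.5 with NS and 23.2 to 23.7 with p53si-1, and the sums of the 3 fibroblast markers were 16.3 to 16.4 and 16.1 to 16.3. The sums of the 3 endothelial markers were 13.2 to 13.8 and 13.3 on both p53si-1 arrays, and 0 markers of any list passed the test, with 1 (the epithelial KRT5, -0.41) at an unadjusted p under 0.05 from limma. In bulk RNA, fewer cells of a type and less RNA per cell cannot be told apart.

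The proteasome is the protease that degrades most ubiquitin-tagged proteins in the cytosol and nucleus. Its barrel-shaped core particle is built from outer rings of alpha subunits (PSMA genes), which gate the entrance, and inner rings of beta subunits (PSMB genes), some of which carry the protease sites. The regulatory particle caps the barrel, with a ring of ATPases (PSMC genes) that unfold substrates and further subunits (PSMD genes) that bind and remove ubiquitin. In cells exposed to interferon, the catalytic beta subunits PSMB5, PSMB6 and PSMB7 are exchanged for PSMB8, PSMB9 and PSMB10, which gives the immunoproteasome and changes the peptides offered to T cells on MHC class I molecules. Proteasome inhibitors are used against blood cancers, and p53 itself is degraded by the proteasome once the ligase MDM2 has tagged it.

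None of the 45 proteasome genes passed an adjusted p of 0.05 from limma, against 20 of all 18417 genes (0.109%), and none differed by over 1.5-fold between the groups, against 170 of all genes (0.923%). Their adjusted p-values from limma ran from 0.265 to 0.9997. PSMB9, a catalytic subunit of the immunoproteasome, was the only member whose mean was lower by over 1.2-fold with p53si-1, a size reached downward by 5.97% of all genes. No member was higher by over 1.2-fold, against 4.63% of all genes. PSMD11 (1.194-fold lower) and PSMD5 (1.196-fold higher) came just short of that size. At an unadjusted p under 0.05 from limma there were 2 members, PSMB9 and the assembly chaperone PSMD5, or 4.44% of the members against 12.3% of all genes.

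The precision of each difference is given by its 95% interval from limma, taken gene by gene without adjustment for the number of genes. The interval of every one of the 45 members lay within 1.5-fold on both sides, as it did for 91.9% of all genes. The intervals reached 0.19 to 0.36 to either side of the difference on the log2 scale, and the outermost bounds were -0.56 for PSMB9 and 0.47 for PSMD5, against 0.585 for 1.5-fold. With few arrays in each group, their number limits the precision.

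The median log2 difference (p53si-1 minus NS) of the members was -0.026, and that of all genes was -0.0089. Without regard to sign the median difference was 0.068 for the members and 0.093 for all genes. The members were brighter, with a median log2 signal of 10.04 against 6.59 for all genes. The comparisons with all genes were not matched for signal. Of the members 29 had a lower mean with p53si-1 (64.4%, against 52.6% of all genes) and 16 a higher one. In 10 members both p53si-1 arrays lay below both NS arrays (22.2%, against 22.6% of all genes), in 6 both lay above (13.3%, against 19.9%), and in the other 29 the groups overlapped. Neither share of separated genes was above that of all genes.

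**Figure D1:**
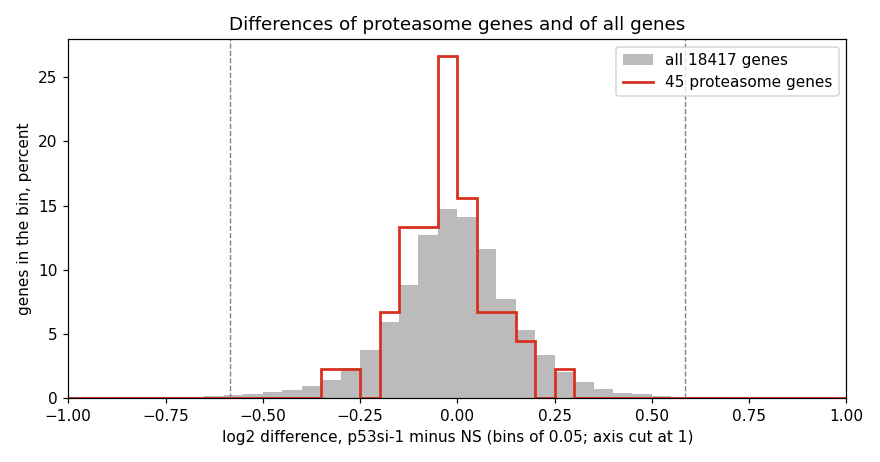
Distribution of the log2 difference (p53si-1 minus NS) over all 18417 genes (grey bars) and over the 45 proteasome genes (red line), as the percent of genes in each bin, with the log2 difference on the x axis and 1.5-fold marked by dashed lines. All proteasome genes lie inside the dashed lines, between -0.33 and 0.26.

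**Figure D2:**
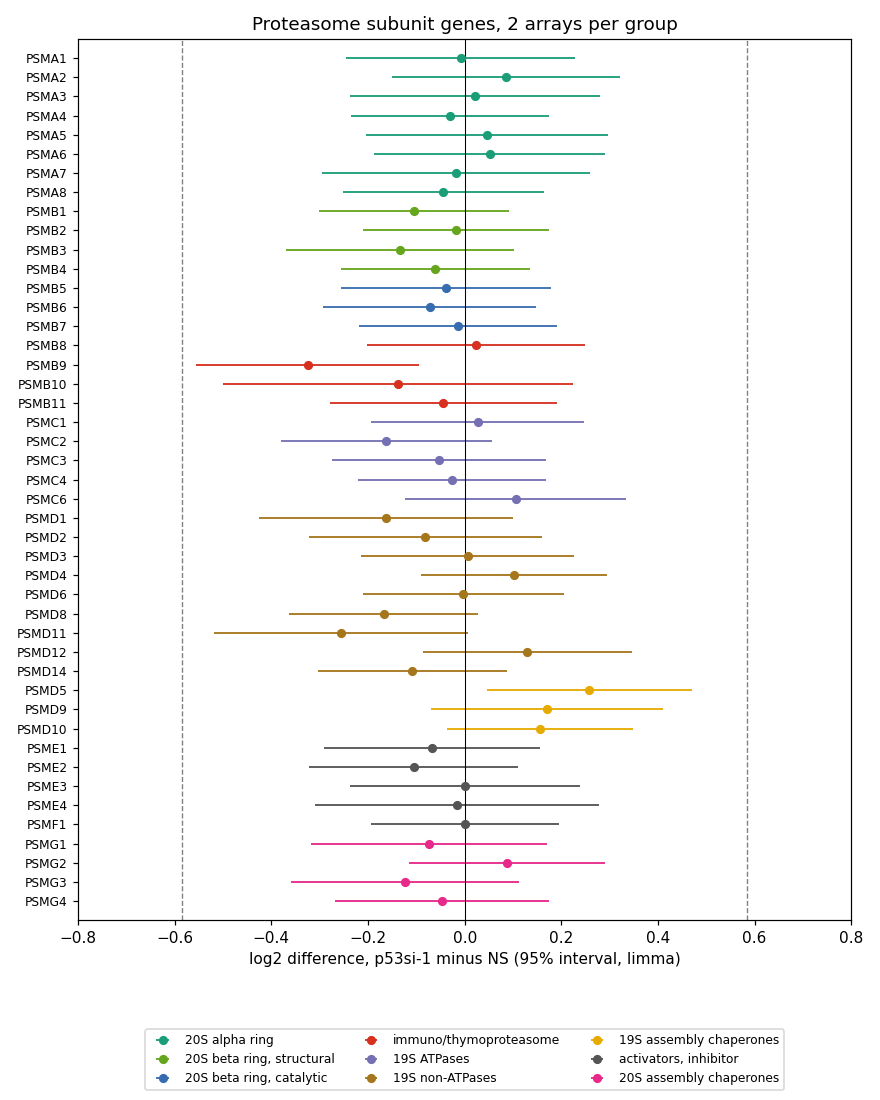
Log2 difference (p53si-1 minus NS, 2 arrays per group) of each proteasome gene on the x axis, with its 95% interval from limma as a line and genes coloured by the part of the proteasome they encode. The intervals of PSMB9 and PSMD5 alone leave out 0, and every interval stays inside the dashed lines at 1.5-fold.

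Among the exchangeable catalytic subunits, the groups separated for PSMB9 and overlapped for the others. PSMB9, which takes the place of the caspase-like subunit PSMB6, had log2 signals of 10.18 and 10.04 with NS and of 9.85 and 9.72 with p53si-1. Both p53si-1 arrays lay below both NS arrays, and the difference was -0.33 (standard error 0.10, 95% interval -0.56 to -0.09, adjusted p = 0.265 from limma), or 1.25-fold. PSMB8, which replaces the chymotrypsin-like subunit PSMB5, had 10.51 and 10.35 with NS and 10.48 and 10.43 with p53si-1. The p53si-1 values of PSMB8 lay between the NS values, with a difference of 0.02 (standard error 0.09, adjusted p = 0.950 from limma). PSMB10, which replaces the trypsin-like subunit PSMB7, was dimmer and more variable, at 6.92 and 6.56 with NS and 6.47 and 6.73 with p53si-1. Its groups overlapped, and its difference of -0.14 had the widest interval of all members (-0.50 to 0.22, adjusted p = 0.773 from limma). The median difference of PSMB8, PSMB9 and PSMB10 was -0.14, which is the value of PSMB10. It moved to 0.04 without NS replicate 1 and to -0.32 without NS replicate 2, and was -0.0089 without p53si-1 replicate 1 and -0.26 without p53si-1 replicate 2, so that single arrays decide it.

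The constitutive partners are the active-site subunits of the ordinary proteasome. PSMB5, the target of the proteasome inhibitor bortezomib, had log2 signals of 8.96 and 9.003 with NS and of 8.87 and 9.02 with p53si-1. PSMB6 had 10.80 and 10.82 with NS and 10.82 and 10.66 with p53si-1, and PSMB7 had 10.15 and 10.21 with NS and 10.12 and 10.20 with p53si-1. In all of them the groups overlapped, with differences of -0.04 for PSMB5, -0.07 for PSMB6 and -0.014 for PSMB7 and adjusted p-values from limma of 0.912, 0.808 and 0.967.

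Each immunoproteasome gene was also set against its own partner on each array. The log2 ratio of PSMB9 to PSMB6, relative to the NS mean, was 0.08 and -0.08 with NS and -0.27 and -0.24 with p53si-1. The groups did not overlap, and the difference of PSMB9 minus that of PSMB6 was -0.25 on the log2 scale. The corresponding values were 0.06 for PSMB8 over PSMB5 and -0.12 for PSMB10 over PSMB7, and in both of these pairs the groups overlapped. These ratios reuse the signals given above, so they are no separate observation, and they were not tested. With 4 arrays the smallest two-sided p of an exact permutation test is 0.333. PSMB11, the catalytic subunit of the thymus form of the proteasome, was dim at 4.17 and 4.10 with NS and 4.18 and 3.997 with p53si-1, with overlapping groups.

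**Figure D3:**
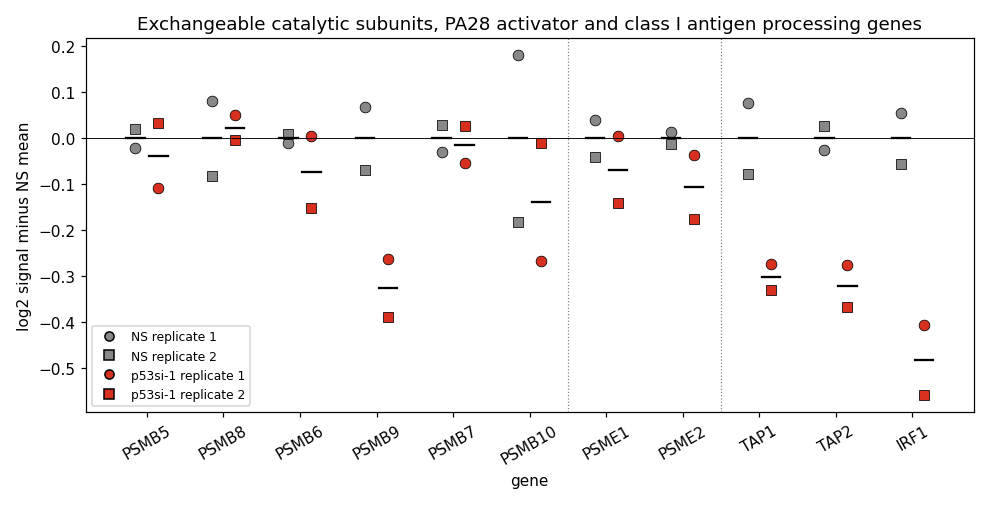
Log2 signal of each array minus the NS mean of the same gene (y axis) for the constitutive and immunoproteasome catalytic subunits in pairs, the PSME1 and PSME2 activator genes and 3 genes of class I antigen processing, with NS in grey, p53si-1 in red, circles for replicate 1, squares for replicate 2 and bars for group means. Both red points lie below both grey points for PSMB9, PSME2, TAP1, TAP2 and IRF1, and the groups overlap for the other 6 genes.

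PSMB9 shares its promoter region with TAP1, a subunit of the transporter that carries peptides from the cytosol to MHC class I molecules. On chromosome 6 (GRCh38.p14) the genes lie head to head, with TAP1 starting at 32853704 on the minus strand and PSMB9 at 32854192 on the plus strand, 488 bases apart. The sequences of this stretch are shown because PSMB9 was the member with the largest difference and TAP1 differed in the same direction. They are from RefSeq, 5′ to 3′ on the strand of the gene named, with positions counted from the start base as 0. Capitals mark GAAANNGAA on either strand, the core letters of the element bound by interferon regulatory factors, and in TAP1 also the kappa-B letters GGACTTTCC.
TAP1 chr6:32853747-32853857, minus strand: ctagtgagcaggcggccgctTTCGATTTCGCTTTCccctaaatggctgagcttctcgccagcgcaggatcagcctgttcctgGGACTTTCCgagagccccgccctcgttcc
PSMB9 chr6:32853992-32854191, plus strand: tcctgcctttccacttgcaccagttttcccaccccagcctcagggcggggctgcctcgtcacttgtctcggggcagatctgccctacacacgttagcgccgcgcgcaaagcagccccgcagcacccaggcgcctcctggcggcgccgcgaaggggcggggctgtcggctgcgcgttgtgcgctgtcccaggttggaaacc
In TAP1 a pair of overlapping matches to GAAANNGAA spans -133 to -119. They lie 355 to 369 bases from the PSMB9 start, outside the PSMB9 window of 250 bases before and 50 after the start, and the PSMB9 window itself holds none.

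The other immunoproteasome genes and the interferon-inducible activator genes PSME1 and PSME2 hold the same letters close to their starts, and they are shown to set beside PSMB9. TAP2, the partner of TAP1 in the transporter, is added.
PSMB8 chr6:32844022-32844070, minus strand: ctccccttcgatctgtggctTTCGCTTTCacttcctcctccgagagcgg
PSMB10 chr16:67936843-67936891, minus strand: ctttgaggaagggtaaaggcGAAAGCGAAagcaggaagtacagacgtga
PSME1 chr14:24136180-24136223, plus strand: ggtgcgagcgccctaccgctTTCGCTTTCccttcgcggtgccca
PSME2 chr14:24146610-24146658, minus strand: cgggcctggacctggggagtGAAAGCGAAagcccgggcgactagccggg
TAP2 chr6:32838769-32838817, minus strand: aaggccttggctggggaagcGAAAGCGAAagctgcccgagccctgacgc
The matches begin at -3 for PSMB8, -21 for PSMB10, 6 for PSME1, -28 for PSME2 and -58 for TAP2. On the arrays the log2 difference was 0.02 for PSMB8, -0.14 for PSMB10, -0.07 for PSME1, -0.11 for PSME2 and -0.32 for TAP2, so genes with the same letters near the start had differences from near 0 to about that of PSMB9.

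RefSeq windows were found for 39 of the 45 members. GAAANNGAA, searched on both strands, was held by 8 of these 39 (20.5%), against 9.15% of the array's 14239 genes with a window. They were PSMA4, PSMB4, PSMB8, PSMB10, PSMC2, PSME1, PSME2 and PSMG4. The 8 had log2 differences from -0.16 to 0.02 with a median of -0.06, and 7 of them were lower in mean. The other 31 ran from -0.33 to 0.26 with a median of -0.0084, and 17 were lower. A lower mean was found in 64.4% of all members and 52.6% of all genes. Whether the difference goes with these letters was not tested. PSMB9 is among the 31. Of the other letters searched on both strands, CCGGAA, bound by ETS factors, was held by 48.7% of the members and 27.0% of these array genes. TGACNNNGC, the antioxidant response core that NFE2L1 and NFE2L2 bind, was held by 35.9% and 18.3%. TTCNNNGAA, the gamma-activated site, was held by 20.5% and 9.20%, and the CCAAT box by 46.2% and 42.2%. GGACTTTCC was held by 0 of the 39 members and 0.513% of the array genes. Matches of different motifs can overlap, and a match is a description of the letters only.

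In the alpha ring of the core particle no member separated the groups. PSMA2 had log2 signals of 9.21 and 9.12 with NS and of 9.16 and 9.34 with p53si-1, and PSMA6 had 10.90 and 10.78 with NS and 10.81 and 10.98 with p53si-1. These were the largest differences of the ring, at 0.09 for PSMA2 and 0.05 for PSMA6, and p53si-1 replicate 2 was the highest array in both. PSMA8, a testis form of an alpha subunit, was dim at 2.98 to 3.09 on all arrays. The other differences were -0.0084 for PSMA1, 0.02 for PSMA3, -0.03 for PSMA4, 0.05 for PSMA5, -0.02 for PSMA7 and -0.04 for PSMA8. Over the 8 alpha genes the median difference was 0.0069, with 4 higher and 4 lower in mean.

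The structural beta subunits, which hold the inner rings together without an active site, were all lower in mean with p53si-1, as were 52.6% of all genes. PSMB3 had log2 signals of 11.48 and 11.37 with NS and of 11.38 and 11.21 with p53si-1. PSMB1 had 9.61 and 9.63 with NS and 9.49 and 9.54 with p53si-1. The p53si-1 arrays of PSMB1 lay below both NS arrays, whereas those of PSMB3 overlapped them. The differences were -0.13 for PSMB3 and -0.10 for PSMB1, with adjusted p-values from limma of 0.644 and 0.671. PSMB4 differed by -0.06 and PSMB2 by -0.02, and the median of the 4 was -0.08. PSMB1, PSMB2 and PSMB4 were separated downward, as were 22.6% of all genes, and PSMB2 only narrowly, at 12.176 and 12.179 with NS and 12.165 and 12.152 with p53si-1.

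Of the 6 ATPases of the regulatory particle 5 were measured. PSMC2 had log2 signals of 11.28 and 11.27 with NS and of 11.04 and 11.19 with p53si-1. Among the clusters used, it was the only ATPase whose groups did not overlap. Its difference was -0.16 (standard error 0.09, adjusted p = 0.535 from limma), and -0.09 without p53si-1 replicate 1. PSMC6 had 8.83 and 8.80 with NS and 8.83 and 9.01 with p53si-1, a difference of 0.11 with p53si-1 replicate 2 as the highest array. The other PSMC6 cluster was dimmer, at 8.47 on both NS arrays and at 8.50 and 8.63 with p53si-1. That cluster differed by 0.09, with both p53si-1 arrays above both NS arrays. PSMC1 differed by 0.03 in the cluster used and by 0.04 in the other, PSMC3 by -0.05 and PSMC4 by -0.03.

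Of the 11 non-ATPase subunits of the regulatory particle 9 were measured, with differences of both signs. PSMD11, a lid subunit whose supply is linked to the assembly of capped proteasomes, had log2 signals of 10.45 and 10.67 with NS and of 10.24 and 10.38 with p53si-1. Both p53si-1 arrays lay below both NS arrays, and the difference was -0.26 (standard error 0.11, 95% interval -0.52 to 0.0069, adjusted p = 0.415 from limma). It was -0.14 without NS replicate 2 and -0.37 without NS replicate 1. PSMD8, another lid subunit, had 10.39 and 10.41 with NS and 10.25 and 10.21 with p53si-1, without overlap, a difference of -0.17 (adjusted p = 0.472 from limma). PSMD14, the deubiquitinase that strips ubiquitin from substrates, was also separated downward, with a difference of -0.11. The ubiquitin receptor PSMD4 (0.10) and the lid subunit PSMD12 (0.13) were separated upward. The scaffold subunits PSMD1 (-0.16) and PSMD2 (-0.08) and the lid subunits PSMD3 (0.0059) and PSMD6 (-0.0025) overlapped. The median of the 9 was -0.08, and 0 of them were at an unadjusted p under 0.05.

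The PSMD symbols also cover 3 chaperones that build the ATPase ring and leave before the particle is finished, and all of them were higher in mean with p53si-1. PSMD5 had log2 signals of 8.34 and 8.47 with NS and of 8.67 and 8.66 with p53si-1. PSMD9 had 7.60 and 7.43 with NS and 7.63 and 7.74 with p53si-1. PSMD10, also known as gankyrin, an oncoprotein that binds the p53 ligase MDM2, had 9.86 and 9.84 with NS and 10.005 and 10.01 with p53si-1. In each of the 3 both p53si-1 arrays lay above both NS arrays, which held for 19.9% of all genes. The difference was 0.26 for PSMD5 (standard error 0.09, 95% interval 0.05 to 0.47, adjusted p = 0.326 from limma). It was 0.17 for PSMD9 and 0.16 for PSMD10, with adjusted p-values from limma of 0.556 and 0.497. The difference of PSMD9 was 0.08 without NS replicate 2 and 0.26 without NS replicate 1. The chaperones that build the alpha ring had differences of both signs. PSMG2 had 10.59 and 10.52 with NS and 10.62 and 10.67 with p53si-1, and it was separated upward by 0.09. PSMG3 had 9.48 and 9.2931 with NS and 9.2928 and 9.24 with p53si-1. Its difference was -0.12, and it was separated downward, but only narrowly. PSMG1 and PSMG4 overlapped, with differences of -0.07 and -0.05.

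Activators that cap the core particle in place of the regulatory particle differed little. PSME2, which forms the interferon-inducible activator with PSME1, had log2 signals of 8.74 and 8.71 with NS and of 8.69 and 8.55 with p53si-1. PSME1 had 10.25 and 10.17 with NS and 10.22 and 10.07 with p53si-1. PSME2 was separated downward, with 8.71 and 8.69 on the nearest arrays, and PSME1 overlapped. The differences were -0.11 for PSME2 and -0.07 for PSME1, with adjusted p-values from limma of 0.702 and 0.829. The nuclear activator PSME3 (0.00035), the large activator PSME4 (-0.02) and the inhibitor PSMF1 (0.0008) had group means that nearly coincided.

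The replicate arrays of each group were compared as well. On p53si-1 replicate 2, 32 of 45 members were higher than on p53si-1 replicate 1 (71.1%, against 45.8% of all genes), with a median difference of 0.10 against -0.02 for all genes. The alpha ring contributed 7 of its 8 genes, with a median of 0.19. Between the NS arrays 21 of 45 members were higher on replicate 2 (46.7%, against 48.1% of all genes), with a median of -0.01. This spread within the p53si-1 group was wider than the median difference between the groups. Taken by replicate number, 33 members were lower with p53si-1 in replicate 1 (73.3%, against 49.997% of all genes, median -0.05) and 22 in replicate 2 (48.9%, against 53.4%, median 0.0015). Without p53si-1 replicate 1 the median difference of the members was 0.02 in place of -0.026, so its sign rests on that array.

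**Figure D4:**
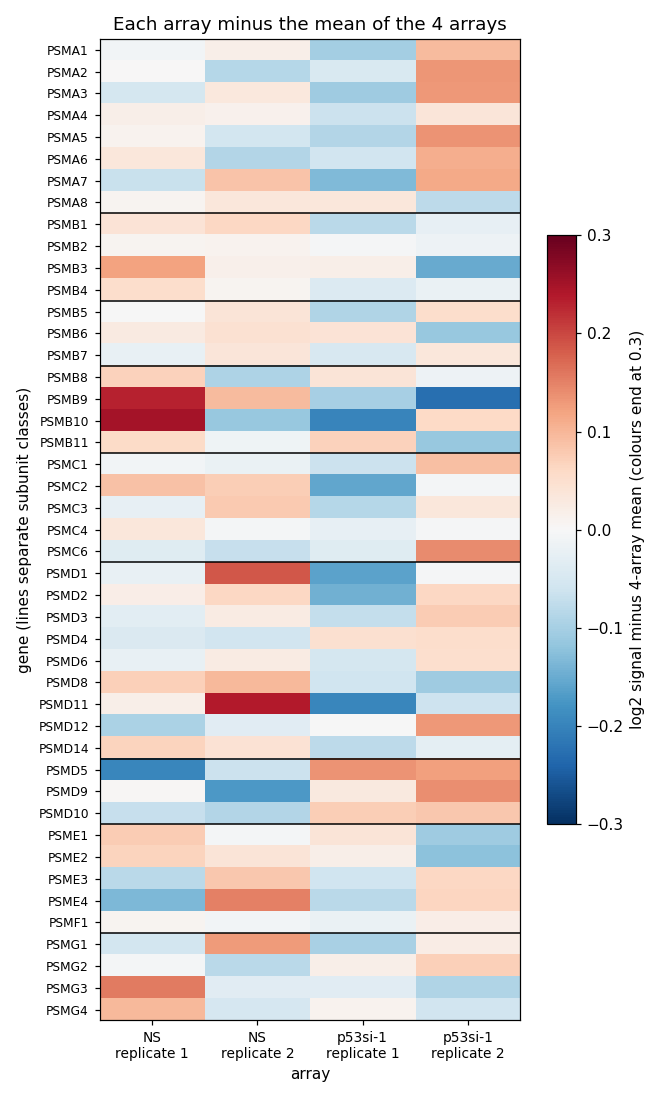
Log2 signal of each proteasome gene (rows) on each array (columns) minus its mean over the 4 arrays, in red above and blue below the mean, with lines between the parts of the proteasome. PSMB9 is red on both NS arrays and blue on both p53si-1 arrays, PSMD5 and PSMD10 show the opposite, and most alpha ring genes are blue on p53si-1 replicate 1 and red on replicate 2.

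Proteins that work with the proteasome but lie outside the PSM symbols were compared as a list, and 0 of its 13 genes passed the test (0.109% of all genes), with 1 at an unadjusted p under 0.05 (12.3% of all genes). Their median log2 difference was 0.07, with 10 higher and 3 lower in mean, against 52.6% of all genes lower. By replicate number the median was 0.0032 in replicate 1, with 6 of 13 lower, and 0.15 in replicate 2, with 3 lower. All 13 were higher on p53si-1 replicate 2 than on p53si-1 replicate 1, against 45.8% of all genes. UBE3C, a ubiquitin ligase bound to the proteasome that extends chains on stalled substrates, had log2 signals of 8.28 and 8.27 with NS and of 8.58 and 8.61 with p53si-1. The difference was 0.33 (standard error 0.08, adjusted p = 0.198 from limma), and the groups did not overlap. Of the 13 genes 3 were separated upward, against 19.9% of all genes, and 2 downward, against 22.6%. PAAF1, a regulator that binds the ATPases, differed by 0.24, the deubiquitinase UCHL5 by 0.13 and the zinc finger protein ZFAND5 by -0.12, all without overlap.

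Of 12 listed regulators of proteasome gene transcription 10 were measured, 8 higher and 2 lower in mean (52.6% of all genes were lower). Of these 0 passed the test, against 0.109% of all genes, and 1 was at an unadjusted p under 0.05, against 12.3%. NFE2L1, the factor that raises transcription of proteasome genes when proteasome activity is short, differed by 0.03. MAFG, one of the small Maf proteins with which NFE2L1 and NFE2L2 bind DNA, had log2 signals of 7.89 and 8.16 with NS and of 8.33 and 8.67 with p53si-1. Its groups did not overlap, and its difference was 0.48 (standard error 0.15, adjusted p = 0.279 from limma). Of the 10 genes 4 were separated upward, against 19.9% of all genes, and 1 downward, against 22.6%. NGLY1, which removes sugar chains from NFE2L1, differed by 0.17, the CCAAT-binding subunit NFYA by 0.12 and the ubiquitin ligase SYVN1 by -0.11.

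Upstream in the pathway, 11 of 15 listed ubiquitin and shuttle factor genes were measured, 4 higher and 7 lower in mean, beside 52.6% of all genes lower. The test was passed by 0 of them (0.109% of all genes), and 1 was at an unadjusted p under 0.05 (12.3% of all genes). RAD23B, a shuttle that carries ubiquitin-tagged proteins to the proteasome, had log2 signals of 8.70 and 8.68 with NS and of 8.32 and 8.36 with p53si-1. The groups did not overlap, and the difference was -0.35 (standard error 0.08, adjusted p = 0.179 from limma). Of the 11 genes 4 were separated downward, against 22.6% of all genes, and 2 upward, against 19.9%. UBA1 and UBA6, the enzymes that activate ubiquitin, differed by -0.18 and -0.19 without overlap. DDI1 was dim, at 3.43 to 3.74, and differed by 0.20.

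In class I antigen processing, the pathway that the immunoproteasome serves, 11 of 18 listed genes were measured and 0 passed the test (0.109% of all genes), with 4 at an unadjusted p under 0.05 (12.3% of all genes). The median log2 difference was -0.14, with 8 lower and 3 higher in mean, where 52.6% of all genes were lower. In 7 of the 11 both p53si-1 arrays lay below both NS arrays, against 22.6% of all genes, and 4 were lower by over 1.2-fold, against 5.97% of all genes. In 2 of the 11, ERAP1 (0.03) and CANX (0.09), both p53si-1 arrays lay above both NS arrays, against 19.9% of all genes. IRF1, an interferon regulatory factor that binds GAAANNGAA elements, had log2 signals of 8.12 and 8.005 with NS and of 7.66 and 7.504 with p53si-1. The groups did not overlap, and the difference was -0.48 (standard error 0.10, 95% interval -0.71 to -0.25, adjusted p = 0.142 from limma), larger than that of any proteasome gene. TAP1 had 9.88 and 9.72 with NS and 9.53 and 9.47 with p53si-1, and TAP2 had 8.75 and 8.80 with NS and 8.50 and 8.41 with p53si-1. TAPBPL, a peptide editor, had 7.20 and 6.995 with NS and 6.82 and 6.57 with p53si-1. All of these were separated downward, with differences of -0.30 for TAP1, -0.32 for TAP2 and -0.40 for TAPBPL and adjusted p-values from limma of 0.281, 0.228 and 0.274. B2M, the light chain of class I molecules, differed by 0.05 with overlapping groups. Whether the difference of PSMB9 is tied to those of IRF1 or TAP1 was not tested.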

How the data were processed

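Members and gene lists were chosen with earlier results of these data known. The values deposited by the authors are log2 signals, 1 per transcript cluster and array, made with GCOS, Affymetrix Expression Console and RMA according to the submitters' processing notes, without stated settings. RMA equalises the distributions of the arrays, which removes a shift shared by most transcripts, and it compresses differences of dim probes. The values were used as deposited, with no filter. GEO's platform annotation names exactly 1 symbol for 19460 of 33297 clusters, and 0 symbols needed updating through RefSeq.

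Differences (p53si-1 minus NS) were tested over 18417 genes in R 4.3.3 with limma 3.58.1 (lmFit, then eBayes, with 2 residual degrees of freedom and 4.20 from the prior), followed by Benjamini-Hochberg adjustment. The steps were also tested on simulated data. Values per array are given for PSMB5 to PSMB10, for the pair of members with the largest difference in each class, and for members with values of interest chosen after they were seen (PSMB2, PSMB11, PSMA8, PSMD10). Of each other list up to 4 genes with the largest difference are named, and NFE2L1 and B2M were added after their values were seen. The alternatives took the mean of a gene's clusters, every cluster, a filter on dim genes, quantile normalization and median centring. They also took a trended prior variance, the replicate number as a block, 3 arrays, and a 1.2-fold criterion. Promoter windows are from RefSeq (GRCh38.p14). The p53 transcript is not analysed here.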

Additional observations from a re-analysis of the deposited data

How the results depend on the processing

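In the fit reported and in 11 other fits, 0 proteasome genes passed the test and 0 differed by over 1.5-fold, while the genes called over all genes ran from 0 (without NS replicate 2, or without either p53si-1 array) to 149 (trended prior variance), against 20. With a criterion of 1.2-fold the count of members in the fit reported is 1 (PSMB9), and which members pass depends on the processing. PSMD11 passed that size with quantile normalization (log2 difference -0.28) and PSMD5 with median centring (0.27). PSMB9 did not reach it without NS replicate 1 (-0.257) or without p53si-1 replicate 2 (-0.262). With the replicate number as a block, 0 members and 12 genes in all were called, and the lowest adjusted p of a member from limma was 0.141. In this balanced design the block cannot change a difference or a median. No source says that the number marks a shared culture, and same-numbered arrays deviated together with a correlation of 0.242 across genes. Leaving out 1 array gave medians of -0.054 to 0.020 for all members, above 0 only without p53si-1 replicate 1, and of -0.319 to 0.044 for the immunoproteasome genes. PSMB9 was lower in every fit, by a log2 difference of -0.39 to -0.26 with adjusted p-values from limma of 0.141 to 0.652. Of 220 values of 20 members under alternatives, 12 changed sign, in 8 members whose reported differences were at most 0.138 in size. In fits added after the data were seen, IRF1, TAP1, TAP2 and TAPBPL kept their sign without each array and stayed above an adjusted p of 0.05 from limma, the lowest being 0.078 for IRF1 with the block. The precision is that of 2 arrays per group, and without the dimmest 25% of genes PSMA8 and PSMB11 drop out, leaving 43 members.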
